A study of Homo sapiens with 9 samples.

Results

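The data compare 2 small interfering RNAs (siRNAs) that lower the same messenger RNA, TRMT12, in the same cells. SKbr3 is a human breast cancer line of luminal type that carries an amplified ERBB2 (HER2) gene. Each two-colour oligonucleotide array measured cells treated with a TRMT12 siRNA against cells treated with a control siRNA. The arrays were chosen by their labelled source: 3 carried cells given TRMT12 siRNA-1 and 3 carried cells given TRMT12 siRNA-3, 6 of the 9 arrays of the series. With either siRNA, arrays 1 and 2 had the knockdown sample in Cy5, and array 3 had the dyes exchanged. No dose, transfection time or siRNA sequence is given in the sources used here. The series text describes a common control siRNA, whereas the source names give controls a number too, and the 2 sets may or may not share control RNA. Nothing in the labels says that the arrays of an siRNA came from separate cultures. All p-values therefore measure how hybridisations vary, possibly only for technical reasons, and would cover a single sample per siRNA if the 3 arrays held the same extracts.

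TRMT12, now named TYW2, transfers an aminocarboxypropyl group during the synthesis of wybutosine, a bulky modified guanosine next to the anticodon of phenylalanine transfer RNA that helps to hold the reading frame. An siRNA guides the Argonaute complex to a matching transcript, but its seed can also pair with other messenger RNAs, so that siRNAs of different sequence can share a target and differ elsewhere. In the integrated stress response, kinases that sense amino acid shortage, misfolded protein, double-stranded RNA or haem deficit phosphorylate the translation factor eIF2, and the transcription factor ATF4 is then made and switches on repair, amino acid and feedback genes. Genes of the G2 phase and mitosis are switched on together late in the cell cycle, and many carry a short promoter element called the cell cycle homology region.

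On the 6 arrays the median spot signal above background ranged from 273.2 to 518.9 units for the knockdown samples and from 243.75 to 538.8 for the controls, and between 2.57% and 21.2% of probes gave no ratio. The log2 ratios of knockdown over control were normalised within each array by loess, and 28259 probes covering 14069 named genes were tested. Across these probes the pair of Cy5 arrays correlated at r = 0.69 for siRNA 1 and r = 0.61 for siRNA 3, while the dye-exchanged array correlated with them at only 0.20 for siRNA 1 and at 0.10 and 0.19 for siRNA 3. Between the siRNAs, the Cy5 arrays correlated at 0.43 to 0.53 and the dye-exchanged arrays at 0.52. Arrays thus resembled each other more by dye orientation than by siRNA. The fit reported here held a dye term. All 12 SKbr3 markers, among them ERBB2, KRT8, KRT18 and GATA3, stood above background on all 6 arrays, and 0 of the 11 tested were called different between the siRNAs. Of 12 basal or mesenchymal markers, 9 were above background on all 6 arrays, and ZEB1 was called higher with siRNA 3 (0.46, adjusted p = 0.0276). The defining basal gene TP63 reached background on 2 of 6 arrays. Of the stromal and blood markers 8 were above background on all 6, PECAM1 was on 0 of 6, and 0 were called.

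The first question was whether both siRNAs removed the target equally. The log2 ratios of TRMT12 were -2.55, -2.73 and -2.65 on arrays 1 to 3 with siRNA 1, and -2.61, -2.51 and -2.35 with siRNA 3. The values of the sets overlapped. After the dye term 16.3% of the control level was left with siRNA 1 and 18.1% with siRNA 3. The difference, siRNA 3 minus siRNA 1, was 0.16 (SE 0.0858, 95% interval -0.05 to 0.36, limma adjusted p = 0.329). With scaling between arrays the sign turned (-0.09). In linear terms the remaining TRMT12 with siRNA 3 was between 0.968 and 1.28 times that with siRNA 1. A two-sided permutation test over all 20 splits of the 6 arrays gave p = 0.2, where 0.1 is the smallest value that 3 against 3 arrays can reach. The splits did not keep dye orientation matched, so the test is only approximate. The comparisons that follow are thus between 2 knockdowns whose depth was not shown to differ, within that interval.

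Many other transcripts did differ. Limma called 2617 of the 28259 probes (9.26%) at an adjusted p under 0.05, of which 1208 (4.27%) were higher and 1409 (4.99%) lower with siRNA 3. The sizes were mostly modest: the median absolute log2 difference of the called probes was 0.44, and at least 1.5-fold differences numbered 190 higher (0.672%) and 362 lower (1.28%). At least 2-fold, 11 probes were higher and 52 lower. The called probes belonged to 975 genes that were higher and 875 that were lower, and 23 genes had probes called in both directions. Of the 2617 probes, 2597 had the same sign on the Cy5 arrays and on the dye-exchanged arrays, and 407 were dim, meaning a mean log2 intensity under 8.64 (the median probe). The calls come from a fit with a dye effect shared by the siRNAs. With a dye term for each siRNA, or with the Cy5 arrays alone, limma called 0 probes. At an unadjusted p under 0.05 these settings had 5538 and 5278 probes, against 6915 in the fit reported here. Both settings also leave less information to estimate the spread, and the cause of the loss was not tested. Leaving out any 1 of the 6 arrays left between 310 and 774 calls.

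Each called probe could be placed by what either siRNA did against its own control, comparisons that may share control RNA. With siRNA 1, 11.6% of probes were called higher and 11.3% lower than control, and with siRNA 3 it was 9.9% and 10.1%. Of the 1409 probes lower with siRNA 3, 602 were called higher with siRNA 1 alone and 401 were called lower with siRNA 3 alone. A further 202 were higher with both siRNAs but less so with siRNA 3, 129 were called in opposite directions, 35 were lower with both and 40 were called with neither. Of the 1208 probes higher with siRNA 3, 447 were called higher with siRNA 3 alone and 447 lower with siRNA 1 alone. Another 152 were called in opposite directions, 78 were higher with both, 49 lower with both and 35 called with neither. Calls against control thus came from either siRNA. The same ratios gave the difference and these calls, so a called difference made a call with at least 1 siRNA likely. A probe not called against control may still have responded.

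Called, bright probes with a ratio on all 6 arrays, no overlap between the siRNAs and 1 sign in both dye orientations were kept. They gave 744 genes higher and 634 lower with siRNA 3, out of the 975 and 875 genes with a called probe. The 15 with the largest difference in each direction are described here. Over all probes with 6 ratios, called or not and bright or dim, 23.4% had groups that did not overlap. The genes higher with siRNA 3 were led by MDFIC, which encodes an inhibitor of MyoD-family transcription factors. Its log2 ratios were -1.37, -1.52 and -0.97 with siRNA 1 and 0.06, 0.26 and 0.47 with siRNA 3. They were strongly below control with siRNA 1 and slightly above it with siRNA 3, a difference of 1.54 (SE 0.111, adjusted p = 0.0038) or 2.92-fold. PDHX, which anchors the E3 subunit in the pyruvate dehydrogenase complex, had -1.21, -1.30 and -0.99 with siRNA 1 and 0.12, 0.30 and 0.45 with siRNA 3. It behaved like MDFIC, with a difference of 1.46 (SE 0.0769, adjusted p = 0.00259).

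Among the 15 were 4 genes that act in mitosis. SGO2, a shugoshin that protects cohesin at centromeres, had -0.31, -0.44 and -0.07 with siRNA 1 and 1.04, 0.86 and 0.94 with siRNA 3, and its second, brighter probe gave a difference of 0.94 that was also called. In pairs of values set against each other, siRNA 1 comes first. The kinetochore motor CENPE had -0.31, -0.24 and -0.10 against 0.87, 0.76 and 0.73, and the kinetochore protein CENPF had -0.33, -0.25 and -0.19 against 0.58, 0.78 and 0.67. In these 3 genes the siRNA 3 arrays were well above control and the siRNA 1 arrays somewhat below it. The differences were 1.22 (SE 0.0936), 1.01 (SE 0.134) and 0.93 (SE 0.0852), with adjusted p of 0.00405, 0.0104 and 0.00498. KIF14, a kinesin of the midbody needed for cytokinesis, had -0.46, -0.86 and -0.58 with siRNA 1 and 0.37, 0.36 and 0.27 with siRNA 3, so that its difference of 0.97 (SE 0.109, adjusted p = 0.00732) lay mostly on the siRNA 1 side. The CENPE call was kept in 2 of the 6 fits that left out an array (adjusted p 0.0401 to 0.056).

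The other genes higher with siRNA 3 had varied roles. ELF5, an ETS transcription factor of milk-secreting luminal cells, had -0.62, -0.59 and -0.28 with siRNA 1 and 0.33, 0.36 and 0.69 with siRNA 3, a difference of 0.96 (SE 0.0591, adjusted p = 0.00279). At this probe the sets lay on opposite sides of the control, but dim ELF5 probes had differences of 0.21 and 0.03 and were not called. ELOVL4, an elongase of very long fatty acids, and DEPDC1, a DEP-domain gene, differed by 1.05 and 1.05. PHLPP2, a phosphatase that acts on AKT, the oxysterol-binding family member OSBPL11 and REEP5, which shapes the endoplasmic reticulum (ER), differed by 0.95, 0.92 and 0.89, though a PHLPP2 probe of about equal brightness had 0.22 and was not called. TRIM23, a ubiquitin ligase with an ARF domain, differed by 0.89, TSC22D2 by 0.90 and MTUS1, a microtubule-associated tumour suppressor candidate, by 0.90. The adjusted p of the 15 genes lay between 0.00259 and 0.0272. The weakest were TSC22D2, whose dye-exchanged siRNA 1 array stood at 0.00 while the Cy5 arrays stood at -0.95 and -1.02, and MTUS1. Without any single array MTUS1 was called in 0 of 6 fits (adjusted p 0.0559 to 0.0673) and TSC22D2 in 2 of 6 (0.046 to 0.104), and a second, dim MTUS1 probe had -0.36.

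The genes lower with siRNA 3 were led by ZFX, an X-linked zinc-finger transcription factor. It had 1.01, 1.43 and 1.14 with siRNA 1 and -0.60, -0.49 and -0.45 with siRNA 3. The sets lay far apart on either side of the control, a difference of -1.70 (SE 0.153, adjusted p = 0.00488), and a dim second probe gave -1.27. HSPA6, a strictly stress-inducible HSP70, had 1.74, 1.89 and 1.79 with siRNA 1 and 0.27, 0.15 and 0.47 with siRNA 3. HMOX1, which encodes haem oxygenase, had 1.80, 1.78 and 1.47 against 0.24, 0.23 and 0.25. Both were more than 2-fold above control on every siRNA 1 array and only slightly above it with siRNA 3. Their differences were -1.51 (SE 0.0876) and -1.44 (SE 0.079), both with adjusted p = 0.00259. HSPA6 belongs to a family with close copies, and whether its probe separates them was not tested.

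VCP, the ATPase that pulls ubiquitinated proteins from membranes and complexes, showed the opposite layout. It had 0.18, 0.17 and -0.06 with siRNA 1, near control, and -1.03, -1.02 and -1.09 with siRNA 3, well below it on all 3 arrays. The difference was -1.14 (SE 0.0624, adjusted p = 0.00259). The Golgi tether USO1 had 0.36, 0.35 and 0.38 against -0.93, -0.89 and -0.54 (difference -1.15, SE 0.107, adjusted p = 0.00552), but a brighter USO1 probe had -0.05 and was not called. The splicing regulator SREK1 had 0.90, 0.86 and 0.74 against -0.56, -0.50 and -0.48 (difference -1.34, SE 0.0915, adjusted p = 0.00341). A second SREK1 probe agreed in sign and was called (-0.96), while the brightest one had 0.19 and was not called. The brighter USO1 probe was called above control with both siRNAs (0.57 and 0.53), as was the brightest SREK1 probe (0.31 and 0.50). USO1 and SREK1 probes thus disagree about the size or sign of the difference, and about the direction with siRNA 3.

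A further group of lower genes was raised by siRNA 1 and near or below control with siRNA 3. DDIT4, an inhibitor of the growth kinase mTORC1 that is induced by stress, had 1.04, 1.10 and 0.85 with siRNA 1 and -0.05, -0.01 and -0.18 with siRNA 3 (difference -1.08, SE 0.0573, adjusted p = 0.00259). ADM, the vasodilator peptide adrenomedullin, had 0.57, 0.74 and 1.09 against -0.43, -0.53 and -0.06 (difference -1.14, SE 0.0716, adjusted p = 0.00279). The monocyte chemokine CCL2 had 0.99, 1.03 and 1.28 against 0.09, -0.07 and 0.22 (difference -1.02, SE 0.0743, adjusted p = 0.0038). In all 3 the lowest siRNA 1 array stood well above the highest siRNA 3 array. SSR3, a subunit of the complex beside the ER translocon, was raised by both siRNAs but differed by -1.02. UGDH, which makes UDP-glucuronate, SWAP70, a regulator of actin signalling, and LURAP1L differed by -1.10, -1.10 and -1.07, but a brighter UGDH probe had -0.28 and was not called. CLIP1, a microtubule plus-end protein, and UTP14C, a copy of a ribosome assembly gene, differed by -1.05 and -1.002. Neither holds for the gene as a whole: a second CLIP1 probe of about equal brightness was called higher (0.52), and a brighter UTP14C probe had 0.02.

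**Figure D1:**
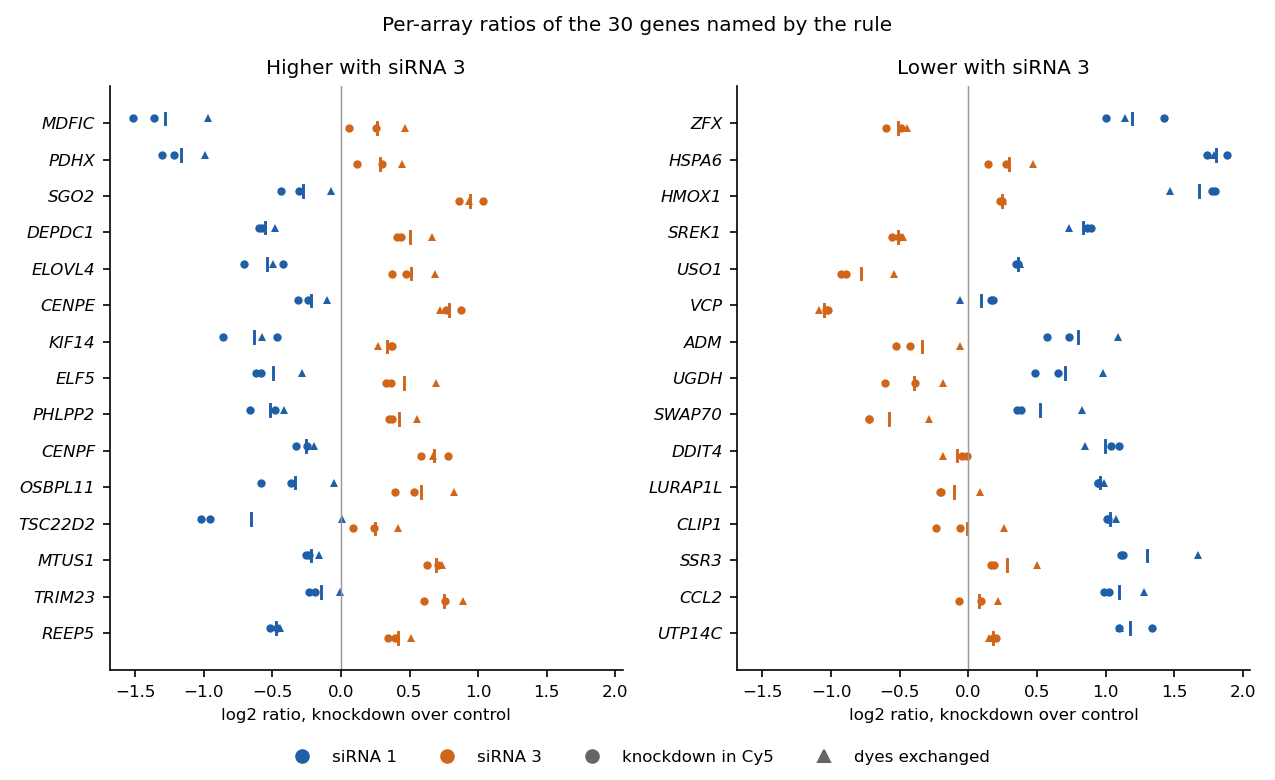
Log2 ratios of knockdown over control on each array for the 15 genes higher and the 15 lower with siRNA 3, with siRNA 1 in blue and siRNA 3 in orange. Circles are arrays with the knockdown in Cy5, triangles the dye-exchanged arrays and short vertical lines the mean of the 3 arrays. The 3 arrays of one siRNA lie apart from the 3 of the other in all 30 genes, which the selection required.

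The direction of all 30 differences was the same under every processing alternative, and 27 of the 30 stayed called when any 1 array was left out. The selection had required a call, sets that did not overlap and 1 sign in both dye orientations, so part of this outcome was fixed in advance. Without background correction 10 of the 30 differences shrank by over 1.5 times, MDFIC to 0.96 and SGO2 to 0.69 among them. A second probe was tested for 15 of the 30 genes, and for 11 of those every other probe had the same sign. Some of these values were near 0, such as -0.05 for USO1 and 0.03 for an ELF5 probe. Of the 20 other probes only 6 were called, and the CLIP1 one of these was called in the opposite direction (0.52). The ratio alone does not show which channel moved, so the channels were also compared separately after quantile normalisation within each dye. In the knockdown channel the 15 higher genes differed by 0.61 to 1.498 and the 15 lower genes by -1.85 to -0.80. In the control channel the same genes differed by only -0.31 to 0.13 and -0.26 to 0.28. Over all called probes, 2509 of 2617 had the sign of the ratio in the knockdown channel. In 2171 the control channel moved less than the knockdown channel. The knockdown channel is part of the ratio by which probes were called, so the shared sign was partly fixed in advance. No probe was called in a single channel, where limma called 0 in the knockdown channel (2464 at an unadjusted p under 0.05) and 0 in the control channel (931).

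**Figure D2:**
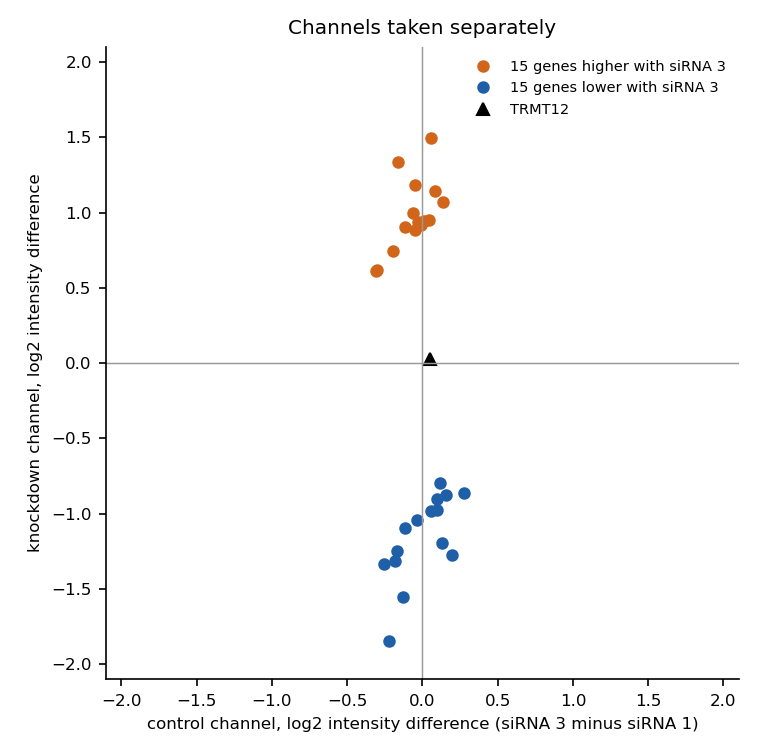
Difference between siRNA 3 and siRNA 1 in log2 intensity, in the control channel on the horizontal axis and in the knockdown channel on the vertical axis, for the 30 genes named by the rule and TRMT12. The genes spread vertically from -1.85 to 1.498 and horizontally only from -0.31 to 0.28, and TRMT12 lies near 0 in both.

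Called in opposite directions against control, with the difference called too, were 178 genes under the same filters. The 6 with the largest difference were ZFX, MDFIC, PDHX, SREK1, SGO2 and USO1, all described above. Brighter SREK1 and USO1 probes did not show opposite directions. Among genes with a bright probe close to control with siRNA 3 (absolute log2 ratio under 0.2), and under the same filters, those that siRNA 1 raised most were UTP14C, CCL2, CLIP1, the polo-like kinase PLK2, the stress cytokine GDF15, the EGFR ligand AREG, LURAP1L and DDIT4. PLK2 had 1.07, 0.89 and 1.06 with siRNA 1 and 0.10, 0.14 and -0.02 with siRNA 3. GDF15 had 0.92, 0.90 and 1.17 against 0.28, -0.02 and 0.08, and AREG had 0.86, 0.93 and 1.02 against 0.09, -0.10 and 0.35. Each siRNA 1 value was thus above each siRNA 3 value by more than 0.5. The differences were -0.93 (SE 0.0818), -0.89 (SE 0.106) and -0.82 (SE 0.113), with adjusted p of 0.00488, 0.00862 and 0.0113. The AREG call was kept in 1 of 6 fits without an array. A brighter PLK2 probe was called above control with siRNA 3 too (0.32) and differed by -0.63. For UTP14C and CLIP1 the layout does not hold at another bright probe. The brighter UTP14C probe was called above control with both siRNAs (0.22 and 0.24), and the second CLIP1 probe had 0.05 with siRNA 1 and 0.58 with siRNA 3.

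In the other direction and under the same filters, genes near control with siRNA 1 that moved most with siRNA 3 included VCP and TRIM23. A pair of mitochondrial genes fell with siRNA 3: PPIF, the cyclophilin of the permeability transition pore, had 0.03, 0.09 and -0.17 with siRNA 1 and -0.72, -0.88 and -1.16 with siRNA 3, and MCUB, a subunit of the calcium uniporter, had -0.31, -0.23 and -0.05 against -0.81, -1.02 and -0.93. EXOSC3, a subunit of the RNA exosome, had 0.01, -0.10 and 0.13 against -0.997, -0.92 and -0.72. These 3 differed by -0.91, -0.73 and -0.89, with adjusted p of 0.00455, 0.0113 and 0.00645. Higher with siRNA 3 were TPR of the nuclear pore basket, with -0.07, 0.02 and 0.02 against 0.72, 0.75 and 0.84, and TOPORS, a ubiquitin and SUMO ligase, with -0.04, -0.26 and 0.34 against 0.62, 0.72 and 0.91. Their differences were 0.78 (SE 0.0617) and 0.74 (SE 0.0904), with adjusted p of 0.00405 and 0.00906. NEMF, which acts in ribosome quality control, differed by 0.67 (SE 0.1, adjusted p = 0.0132), but in the knockdown channel it differed by -0.04 and in the control channel by -0.76. Brighter NEMF probes had 0.21 and 0.01 and a second MCUB probe -0.19, none of them called, whereas a brighter EXOSC3 probe was called lower (-0.45). Without single arrays NEMF was called in 2 of 6 fits and MCUB in 3.

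The 33 gene lists were described with the brightest probe of each gene, by the number of members called and the median difference. Over the brightest probes of all 14069 genes 6.11% were called higher and 4.44% lower with siRNA 3, and the median difference was 0.03. Lists for stress, inflammation and interferon lay at the lower end and cell cycle and cholesterol genes at the upper end. In the plot of list medians, the widest distances between the siRNAs belonged to the G2/M list and the integrated stress response list. The counts of called members depended on the processing. With median centring each list had at most 1 member called in either direction.

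**Figure D3:**
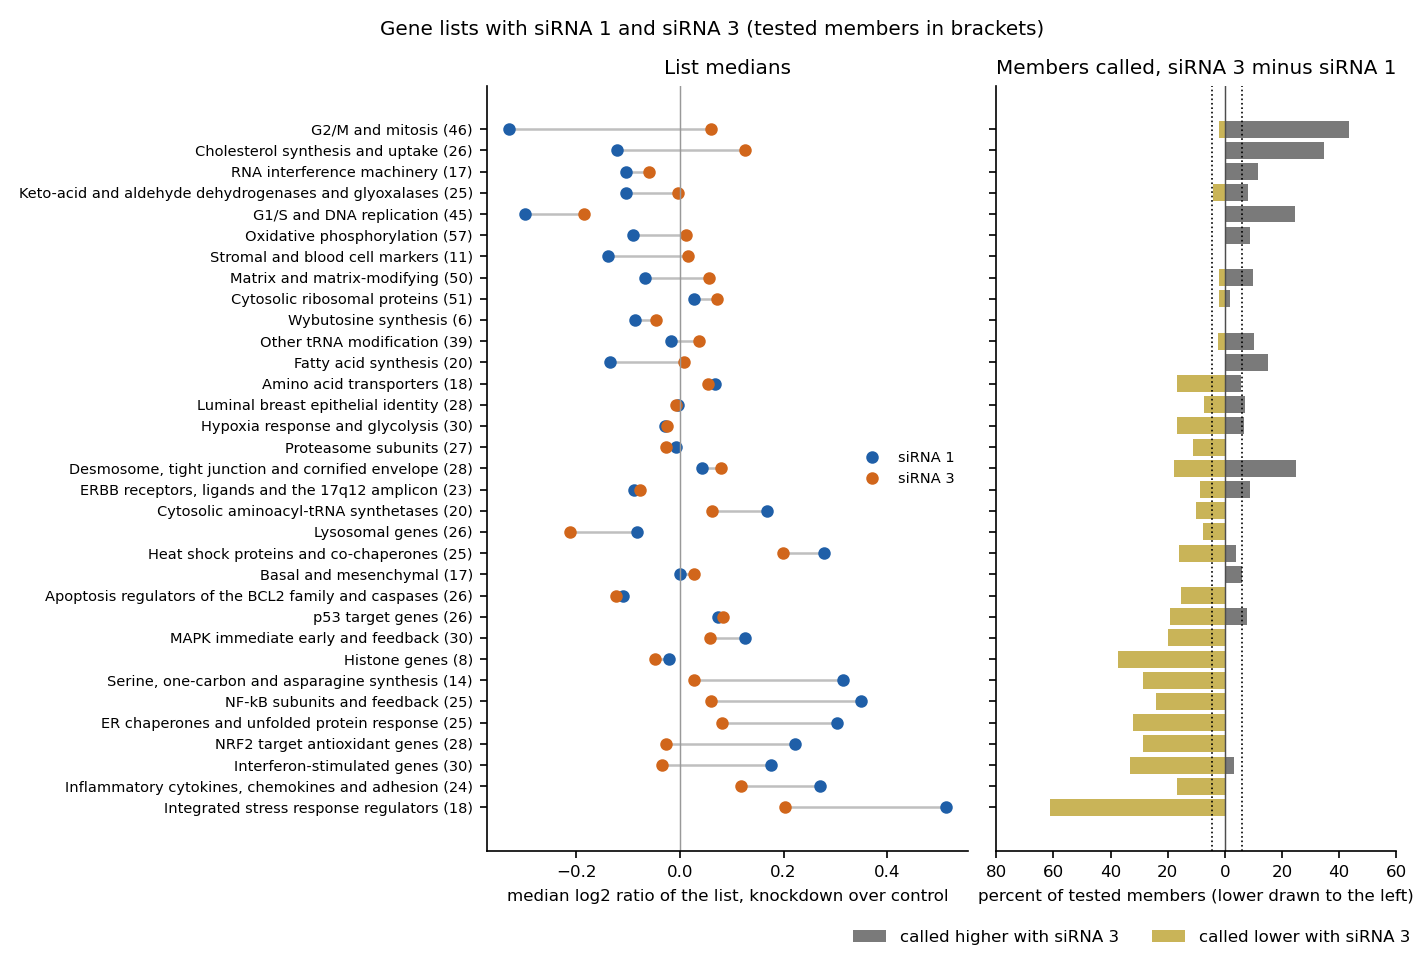
Left, the median log2 ratio of knockdown over control of each gene list with siRNA 1 (blue) and siRNA 3 (orange), sorted by the median difference, with the number of tested members in brackets. Right, the percent of tested members called higher (grey, to the right) and lower (yellow, to the left) with siRNA 3, with dotted lines at the 6.11% and 4.44% of all genes. G2/M genes reach furthest to the right and integrated stress response genes furthest to the left.

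Integrated stress response regulators were lower with siRNA 3: 11 of 18 tested members were called lower and 0 higher, with a median difference of -0.43. The list median was 0.51 with siRNA 1 (15 called higher than control) and 0.20 with siRNA 3 (8 higher, 2 lower). The called members were transcription factors and their targets. ATF4 itself, the transcription factor at its centre, had 0.59, 0.81 and 0.24 with siRNA 1 and 0.17, 0.14 and -0.22 with siRNA 3. DDIT3, the factor CHOP that promotes death under lasting stress, had 1.06, 0.87 and 1.05 against 0.31, 0.33 and 0.51. ATF3, a repressor induced by ATF4, had 1.18, 0.81 and 1.05 against 0.29, 0.21 and 0.25. All 3 were above control on every siRNA 1 array, and the sets did not overlap. The differences were -0.52 (SE 0.0725), -0.61 (SE 0.071) and -0.76 (SE 0.105), with adjusted p of 0.0117, 0.00804 and 0.0113.

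Feedback genes of the response followed. PPP1R15A, which returns the phosphatase to eIF2, had 1.23, 1.43 and 1.35 with siRNA 1 and 0.61, 0.60 and 0.50 with siRNA 3 (difference -0.77, SE 0.0809, adjusted p = 0.00645), so it was raised by both and less by siRNA 3. PPP1R15B, its constitutive counterpart, differed by -0.35 and TRIB3, a pseudokinase that restrains ATF4, by -0.31. CHAC1, which degrades glutathione, had 0.72, 1.06 and 0.73 against 0.21, 0.21 and -0.06 (difference -0.71, SE 0.107, adjusted p = 0.0132). SESN2, a leucine sensor upstream of mTORC1, differed by -0.57, and the transcription factors CEBPB and NUPR1 each by -0.66. The kinases that start the response were not called: EIF2AK3, the ER stress kinase PERK, had -0.08 (adjusted p = 0.692), EIF2AK4, the amino acid sensor GCN2, 0.26 (0.112), EIF2AK2, the double-stranded RNA kinase PKR, -0.26 (0.0758) and EIF2AK1 0.33 (0.669). CEBPG (-0.33, adjusted p = 0.056), EIF2S1 (-0.05) and ATF5 (0.14) were not called either.

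Of the 11 called members all had the sign of the ratio in the knockdown channel, but in DDIT3, NUPR1 and TRIB3 the control channel moved more. The control channel differed by 0.55, 0.63 and 0.19 in these genes and the knockdown channel by -0.06, -0.02 and -0.07. Their part in the result was not tested. Without any 1 array between 6 and 9 members were called lower, with list medians of -0.47 to -0.40. The median stayed between -0.52 and -0.31 under 14 other settings, of which 3 called 0 members. With median centring 1 member was called lower, and without a dye term 5.

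ATF4 binds an element read here as TGATGNAA on either strand. In RefSeq promoters of assembly GRCh38.p14, from 250 bases before to 50 after the gene start, 16 of the 18 tested regulators were found, and 3 held the element, all among the 10 called members found. The share was 2.22% of the 11130 tested genes with a promoter and 3.67% of all 27305 promoters. The windows that hold it upstream of called genes are shown to let the letters be read beside the values, with the match in capitals and each sequence in the direction of the gene.
ATF3, chr1:212565190-212565249, plus strand: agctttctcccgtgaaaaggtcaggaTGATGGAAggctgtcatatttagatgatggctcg
CHAC1, chr15:40953236-40953295, plus strand: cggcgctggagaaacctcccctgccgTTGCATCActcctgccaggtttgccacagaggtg
PPP1R15B, chr1:204412008-204412067, minus strand: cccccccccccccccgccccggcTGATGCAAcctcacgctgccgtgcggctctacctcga
ASNS, chr7:97872443-97872502, minus strand: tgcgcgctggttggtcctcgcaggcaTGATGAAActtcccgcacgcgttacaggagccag
The first 3 are the regulators, and ASNS belongs to the serine and asparagine list described next. In CHAC1 the match lies on the reverse strand. A match is a string of letters and does not show binding.

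Amino acid and ER stress genes moved in the same direction. In serine, one-carbon and asparagine synthesis 4 of 14 members were called lower and 0 higher, with list medians of 0.31 with siRNA 1 and 0.03 with siRNA 3. CBS, the first enzyme from homocysteine to cysteine, had 0.80, 0.88 and 0.60 with siRNA 1 and 0.10, -0.05 and 0.02 with siRNA 3 (difference -0.73, SE 0.0825, adjusted p = 0.00732). The serine enzymes PSAT1 and PSPH differed by -0.57 and -0.32, and the asparagine synthetase ASNS by -0.40 (adjusted p = 0.043). Among ER chaperones and unfolded protein response genes 8 of 25 were called lower and 0 higher, with medians of 0.30 and 0.08. The stress sensor ATF6 had 0.11, 0.46 and 0.38 against -0.35, -0.40 and -0.09, and the co-chaperone DNAJB9 had 1.04, 0.95 and 0.97 against 0.57, 0.53 and 0.26. The printed ATF6 values lay above control with siRNA 1 and below it with siRNA 3, but a second bright ATF6 probe differed by 0.07 and was not called, and the ATF6 call was kept in 1 of 6 fits without an array. DNAJB9 was above control with both siRNAs. They differed by -0.60 and -0.53, and DNAJC3, SDF2L1, SELENOS, ERO1B, HERPUD1 and ERO1A by -0.58 to -0.39. Without single arrays 1 to 4 of the ER genes and 1 of the serine genes remained called.

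Targets of NRF2, the transcription factor of the oxidant response, had 8 of 28 members called lower and 0 higher, 7 of them by at least 1.5-fold. Their list median was 0.22 with siRNA 1 and -0.03 with siRNA 3. NFE2L2, which encodes NRF2 itself, had 0.58, 0.59 and 1.00 with siRNA 1 and -0.05, -0.14 and 0.32 with siRNA 3 (difference -0.68, SE 0.0685, adjusted p = 0.00616). MAFG, its binding partner, had 0.54, 0.45 and 0.56 against -0.33, -0.45 and -0.17 (difference -0.83, SE 0.0745, adjusted p = 0.00488). Neither gene overlapped between the sets. OSGIN1, AKR1C2, SRXN1 and FTL, the ferritin light chain, differed by -0.79, -0.64, -0.59 and -0.50. The cystine importer SLC7A11, at a dim probe, had 1.08, 1.43 and 1.16 against 0.36, 0.35 and 0.13 (difference -0.94), with a control channel that differed by 0.40. Among 25 heat shock genes 13 were called above control with siRNA 1 and 11 with siRNA 3, and between the siRNAs 4, HSPA6 included, were called lower and 1 higher. BAG3, DNAJB4 and HSPB8 differed by -0.47, -0.53 and -0.53, and HSPA4L by 0.42. Without single arrays 4 to 7 NRF2 targets and 1 to 2 heat shock genes were called lower.

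Of 24 cytokine, chemokine and adhesion genes 4 were called lower and 0 higher, all by at least 1.5-fold, and the list median was 0.27 with siRNA 1 and 0.12 with siRNA 3. CXCL8, the neutrophil chemokine, had 1.52, 2.11 and 1.96 with siRNA 1 and -0.79, -0.83 and 0.84 with siRNA 3 (difference -2.12, SE 0.409, adjusted p = 0.0265). Its dim probe scattered by dye with siRNA 3, and the call was kept in 1 of 6 fits without an array. CCL20, an attractant of CCR6-bearing cells measured at a dim probe, had 0.71, 1.33 and 1.27 against -0.11, -0.21 and 0.22 (difference -1.14, SE 0.188), and IL6 had 1.04, 1.15 and 0.88 against 0.36, 0.32 and 0.09 (difference -0.77, SE 0.112). With CCL2 these were the called members. Without single arrays CCL20 was called in 1 of 6 fits, IL6 in 2 and CCL2 in 6. Without background correction CXCL8 had -0.42, CCL20 -0.32 and IL6 -0.40, and the list median was -0.06, as it also was with signal required in both channels (-0.06) or low-quality spots left out (-0.06). Among NF-kB subunits and feedback genes 6 of 25 were called lower and 0 higher, with differences of -0.51 to -0.36. They were NFKBIB and NFKBIA, which hold NF-kB in the cytosol, TNIP1, IER3, the deubiquitinase CYLD and the subunit RELB. Without single arrays 1 to 3 inflammatory and 0 to 2 NF-kB members were called.

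Interferon-stimulated genes had 10 of 30 members called lower and 1 higher, with list medians of 0.18 with siRNA 1 and -0.04 with siRNA 3. The called members included genes of antigen presentation and others. HLA-B had 0.42, 0.32 and 0.06 with siRNA 1 and -0.34, -0.47 and -0.35 with siRNA 3 (difference -0.65, SE 0.106, adjusted p = 0.0165). HLA-C differed by -0.40, and the immunoproteasome subunits PSMB8 and PSMB9 by -0.48 and -0.43. HLA genes are near-identical in long stretches and may share signal. IRF1, the factor that drives many of these genes, had 0.58, 0.63 and 0.64 against -0.02, -0.06 and 0.08 (difference -0.62, SE 0.0799, adjusted p = 0.00999). BST2, which tethers budding virus, differed by -0.83, ISG20 by -0.59, IFIT5 by -0.43 and IRF7 by -0.41, and IFI44L was the one called higher (0.36). Without single arrays 1 to 3 members were called lower, and BST2 was called in 0 of 6 fits.

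Other signalling lists gave smaller counts. MAPK immediate early and feedback genes had 6 of 30 called lower and 0 higher, among them FOS (-0.87 at a dim probe, and -0.37 without background correction) and the phosphatases DUSP5 (-0.63) and DUSP1 (-0.60). The p53 targets had 5 of 26 called lower, led by GDF15 and the growth arrest gene GADD45A (-0.79), and 2 higher, SESN1 (0.64) and RRM2B (0.43). GADD45A had 0.86, 0.66 and 1.02 with siRNA 1 and 0.01, 0.10 and 0.05 with siRNA 3. Among BCL2 family genes and caspases 4 of 26 were lower, among them CASP4, an inflammatory caspase measured at a dim probe, at -1.97, which shrank to -0.43 without background correction and was not called at an equally dim second probe (0.15). In CASP4 the control channel differed by 0.95, and in BAD (-0.31) the knockdown channel had the opposite sign (0.11). Without single arrays 0 to 3 MAPK, 3 to 4 p53 and 1 to 2 apoptosis members were called lower.

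G2/M and mitosis genes formed the main group on the other side. Of 46 tested members 20 were called higher with siRNA 3 and 1 lower, 10 of them higher by at least 1.5-fold, and the median difference was 0.32. With siRNA 1 the list median was -0.33, with 34 members called lower than control and 2 higher. With siRNA 3 it was 0.06, with 14 called higher and 10 lower. Of the 20 higher members, 16 were called lower with siRNA 1 and 12 higher with siRNA 3. Beside CENPE, CENPF and KIF14, the called members included 3 further kinesins described here. KIF4A, which condenses and slides the midzone, had -0.81, -1.05 and -0.56 with siRNA 1 and -0.04, -0.23 and 0.33 with siRNA 3. KIF18A, which damps chromosome movement, had -0.31, -0.50 and 0.06 against 0.37, 0.39 and 0.66, and KIF23, of the centralspindlin complex, had -0.43, -0.54 and -0.43 against 0.20, 0.23 and 0.34. The siRNA 1 arrays lay below the siRNA 3 arrays in each, by 0.83 (SE 0.126), 0.72 (SE 0.0918) and 0.72 (SE 0.065), with adjusted p of 0.014, 0.00959 and 0.00488.

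Checkpoint and spindle assembly genes moved alike. BUB1B, which delays anaphase, had -0.48, -0.56 and -0.13 with siRNA 1 and 0.23, 0.25 and 0.57 with siRNA 3 (difference 0.74, SE 0.0956, adjusted p = 0.00978). TPX2, which activates Aurora A on the spindle, had -0.62, -0.74 and -0.24 against 0.00, 0.10 and 0.60 (difference 0.77, SE 0.0987, adjusted p = 0.00978). Both sets were ordered the same way on Cy5 and dye-exchanged arrays. The kinase AURKA differed by 0.44, but its second probe, of about equal brightness, was called lower (-0.47). The checkpoint gene MAD2L1 differed by 0.37, the kinetochore genes NUF2 and SPC25 by 0.61 and 0.51, and the securin PTTG1 by 0.47. ANLN of the cleavage furrow, CKS2, HMMR, KIF20A, NUSAP1, CCNB2 and NEK2 differed by 0.32 to 0.66. Master regulators were not called: FOXM1 had 0.32 (adjusted p = 0.0632), PLK1 0.25 (0.0685), CCNB1 0.30 (0.145), CDK1 0.16 (0.228) and CDC20 -0.13 (0.422).

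TOP2A, the topoisomerase that untangles chromosomes, went the other way. It had 0.21, 0.18 and 0.28 with siRNA 1 and -0.67, -0.58 and -0.40 with siRNA 3 (difference -0.77, SE 0.0639, adjusted p = 0.00455). It is also a gene near ERBB2, on chromosome 17, and ERBB2 itself had 0.37 (adjusted p = 0.22). The list median stayed between 0.26 and 0.38 under 14 other settings and between 0.31 and 0.36 without single arrays. The members called higher without an array numbered 5 to 12, and 3 settings called 0. With median centring 1 member was called higher, and without a dye term 5.

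**Figure D4:**
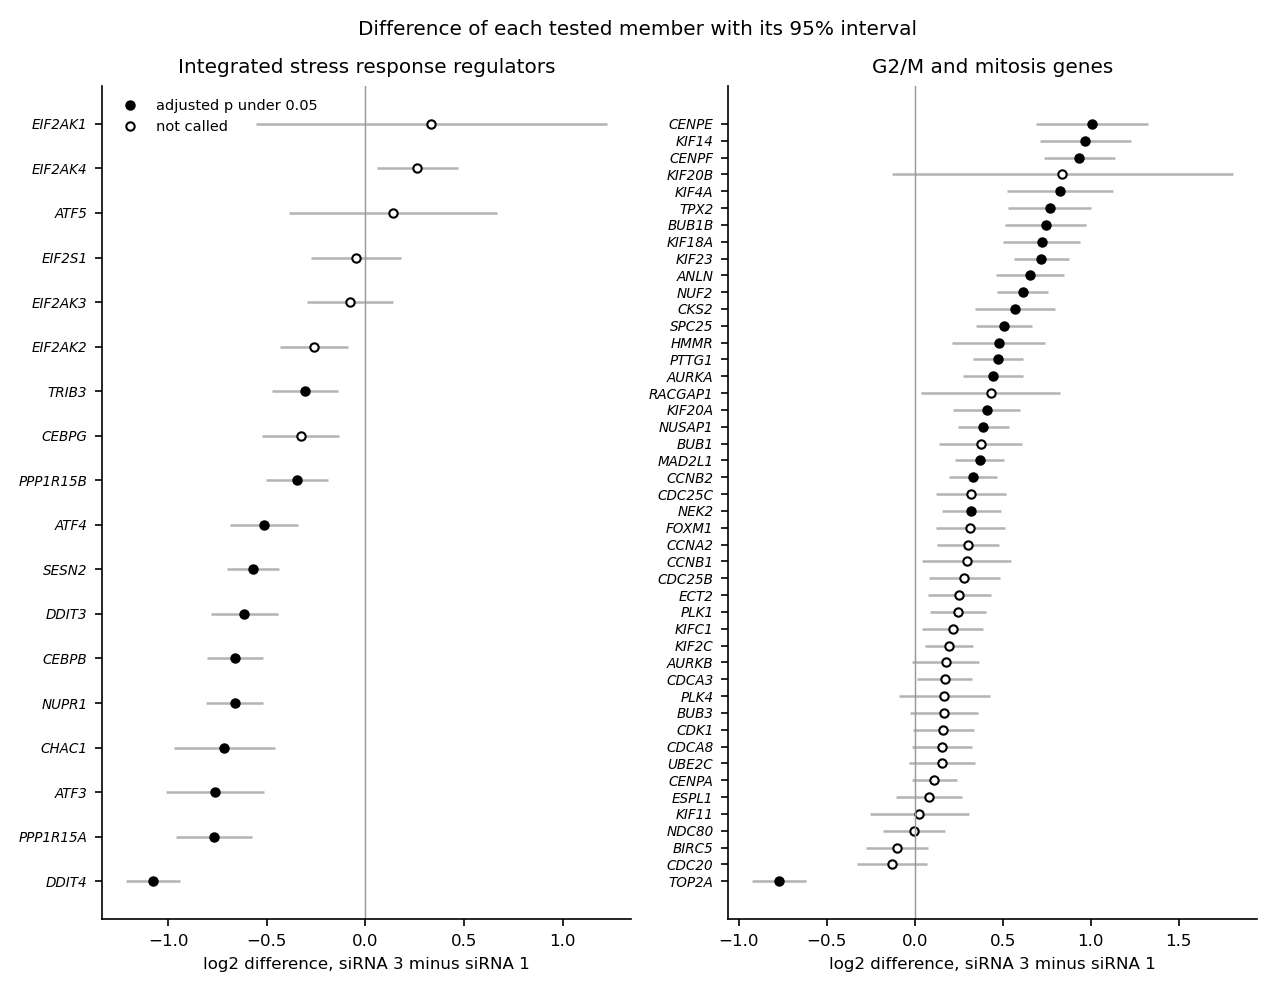
Log2 difference, siRNA 3 minus siRNA 1, of each tested integrated stress response regulator (left) and G2/M or mitosis gene (right), with its 95% interval from limma as a line. Filled points passed an adjusted p under 0.05 and open points did not. The stress regulators extend from -1.08 for DDIT4 to 0.33 for EIF2AK1, and the G2/M genes from -0.77 for TOP2A to 1.01 for CENPE.

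The cell cycle homology region was searched as TTTGAA on either strand. Promoters were found for 39 of the 46 tested G2/M genes, and 28 of them (71.8%) held it, as did 15 of the 19 called members found (78.9%). The share was 11.1% of the tested genes with a promoter and 15.4% of all promoters. Windows of 5 genes called higher are printed because the element marks genes that peak in G2 and M, with the match in capitals.
BUB1B, chr15:40161009-40161068, plus strand: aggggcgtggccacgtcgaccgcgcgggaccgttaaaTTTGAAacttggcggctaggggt
KIF23, chr15:69414267-69414326, plus strand: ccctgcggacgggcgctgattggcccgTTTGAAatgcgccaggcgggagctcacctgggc
KIF4A, chrX:70290043-70290102, plus strand: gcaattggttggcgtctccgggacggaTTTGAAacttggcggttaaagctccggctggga
CCNB2, chr15:59105086-59105145, plus strand: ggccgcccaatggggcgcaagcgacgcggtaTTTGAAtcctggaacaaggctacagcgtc
HMMR, chr5:163460572-163460631, plus strand: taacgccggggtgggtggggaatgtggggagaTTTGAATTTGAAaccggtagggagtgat
HMMR holds the element 2 times in a row. The matches begin 23, 55, 34, 29 and 28 bases before the RefSeq start in the order printed. The list was rich in the element whether or not a member was called.

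Of 45 G1/S and DNA replication genes 24 were called below control with siRNA 1, and 16 below and 3 above with siRNA 3. Between the siRNAs 11 were called higher with siRNA 3 and 0 lower, with medians of -0.30 with siRNA 1 and -0.19 with siRNA 3. Among them were PRIM1, the primase subunit (0.57), the helicase subunit MCM3 (0.54), CDK6, the G1 kinase (0.50, with -0.42 and no call at a dim second probe), the ligase LIG1 (0.40) and cyclin E, CCNE1 (0.39). CCNE1 had -0.67, -0.69 and -0.87 with siRNA 1 and -0.36, -0.37 and -0.33 with siRNA 3, below control on all 6 arrays. PRIM1 had -0.53, -0.50 and -0.30 against 0.03, 0.04 and 0.32, below control with siRNA 1 alone. Without single arrays 1 to 3 members were called.

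Of 26 cholesterol synthesis and uptake genes 9 were called higher and 0 lower, with a median difference of 0.28. The list median was -0.12 with siRNA 1 and 0.13 with siRNA 3. HMGCS1, an early enzyme of the pathway, had -0.10, -0.20 and 0.17 with siRNA 1 and 0.51, 0.45 and 0.91 with siRNA 3 (difference 0.67, SE 0.0707, adjusted p = 0.00646). A second, less bright HMGCS1 probe differed by 0.07 and was not called. SQLE, which makes squalene epoxide, had 0.01, 0.08 and -0.15 against 0.71, 0.74 and 0.40 (difference 0.64, SE 0.0707, adjusted p = 0.00714). In the printed probes of both genes the lowest siRNA 3 array stood above the highest siRNA 1 array. The pathway enzymes MSMO1, DHCR7 and FDFT1 differed by 0.52, 0.33 and 0.33. SREBF2, the transcription factor that drives the pathway, was also called (0.36). In fatty acid synthesis 3 of 20 were higher and 0 lower: ACLY (0.72), which makes cytosolic acetyl-CoA, ACSL3 (0.66) and ACSL1 (0.34). A second ACSL3 probe, bright but less so, was called lower (-0.80), so the direction of ACSL3 is not settled. Without single arrays 2 to 5 cholesterol genes and 1 to 2 fatty acid genes were called.

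Epithelial genes split both ways. Of 28 desmosome, tight junction and cornified envelope genes 7 were called higher and 5 lower. The claudins CLDN4 and CLDN7, seals of tight junctions, differed by -0.92 and -0.45, and the desmosomal cadherin DSG2 by -0.71. CLDN4 had 0.61, 0.54 and -0.11 with siRNA 1 and -0.51, -0.42 and -0.79 with siRNA 3, with the dye-exchanged siRNA 1 array below control. The adaptor CGN (0.55) and the envelope genes EVPL (0.53) and PPL (0.32) were higher, and SPRR1B, another envelope gene measured at a dim probe, was lower (-1.495, and -0.27 without background correction). Without single arrays 0 of the 7 higher and 3 to 4 of the lower members were called. Among receptors, ERBB3, the partner of HER2, had -0.34, -0.38 and -0.55 against 0.25, 0.18 and 0.07 (difference 0.59, SE 0.0746, adjusted p = 0.00959). Of 50 matrix genes 5 were higher, led by the laminin LAMB1 (0.75) and, at a dim probe, the collagen COL5A2 (1.67, and 0.61 without background correction). The protease activator PLAU, raised by siRNA 1, was the one called lower (-0.78).

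Metabolic and transport genes gave a few further calls, to be read beside 6.11% higher and 4.44% lower over all genes. Near those shares were the hypoxia genes (6.67%) and amino acid transporters (5.56%) called higher. So were the dehydrogenases (8% higher and 4% lower) and the lysosomal genes called lower (7.69%). Of 30 hypoxia and glycolysis genes 5 were lower, ADM and the hexokinase HK2 (-0.69) among them, and 2 higher, one of which was the oxygen-sensing factor HIF1A (0.53), whose second bright probe had -0.01 and was not called. Of 18 amino acid transporters 3 were lower and 1 higher, the lysosomal arginine sensor SLC38A9 (0.69). Among 25 keto-acid and aldehyde dehydrogenases PDHX and DLST (0.44), a subunit of the 2-oxoglutarate dehydrogenase complex, were higher and BCKDHB was lower (-0.35). A second, less bright DLST probe had 0.06 and was not called. The lysosomal protease CTSS (-0.60) and ceramidase ASAH1 (-0.44) were the 2 of 26 lysosomal genes called lower. Of 8 histone genes 3 were lower, among them MACROH2A1 (-0.50) and H2BC3 (-0.60), the latter a gene with near-identical copies.

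Some lists showed little beyond the background. In wybutosine synthesis 0 of 6 genes were called, and TYW3, which acts after TRMT12, had 0.62 with siRNA 1 and 0.53 with siRNA 3. Of 39 other tRNA modification genes 4 were called higher and 1 lower, and YRDC, of threonylcarbamoyl synthesis, had the largest called difference (0.52). In the RNA interference machinery, through which an siRNA acts, 2 of 17 were called higher, the nucleases DICER1 (0.34) and DROSHA (0.32), and AGO2, the slicer, had -0.19 (adjusted p = 0.27). Oxidative phosphorylation genes had 5 of 57 higher, by 0.26 to 0.48, and 1 of these, ATP5MC1, differed by -0.84 in the knockdown channel. Cytosolic ribosomal protein genes had 1 of 51 called in each direction, proteasome subunits 3 of 27 lower, and aminoacyl-tRNA synthetases 2 of 20 lower. Without any 1 array 0 proteasome, synthetase and RNA interference genes were called.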

How the data were processed

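Dual-colour oligonucleotide arrays compared TRMT12 siRNA with control siRNA in SKbr3 cells. The deposited files give the mean intensity of each spot above local background in both channels, the background and its standard deviation, a quality fraction from 0 to 1, and the authors' calibrated ratio, which is the ratio of channels divided by 1 factor per array (0.558 to 1.64 on these 6 arrays). The series text states that channel columns of dye-exchanged arrays were exchanged before deposit, so the ratio is knockdown over control throughout. The deposited log2 values equal the log2 calibrated ratio within 0.001, with the sign turned on dye-exchanged arrays. Their medians lie between -0.15 and 0.04, so scale and direction are settled, and the values are not centred on 0. The image program and probe sequences are not given in the sources used here.

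Spots at the floor of 1 had no ratio. The deposited intensity is already above background, so no further correction was applied, and normexp with an offset of 50 was an alternative. Log2 ratios were normalised by loess within arrays. Probes were tested if the signal of either channel exceeded 2 background standard deviations on at least 6 of the 9 arrays and each siRNA had a ratio in both dye orientations. A single limma model (version 3.58.1, R 4.3.3) over all 9 arrays held the 3 siRNAs and a dye term, and p-values were adjusted by Benjamini-Hochberg over 28259 probes, with calls at 0.05. The method was tested on simulated data. The number of arrays limits the precision. Probes were named by the platform annotation and RefSeq symbols: 21568 matched a current symbol, 177 an old symbol and 1943 an accession, while 10243 had no name, 1025 had several genes and 372 had sources that differ.

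Named genes are TRMT12, the 15 largest called differences each way among bright probes with 6 ratios, sets that did not overlap and 1 sign in both dye orientations, up to 6 genes called in opposite directions, up to 8 that moved with a single siRNA, and in each list the 2 highest, the 2 lowest and members called by at least 1.5-fold. Other list members were named after their values were seen. The comparison, lists and rules were chosen with earlier results of these data known. Alternatives changed the normalisation, background, filter, quality limit, dye term, channels and arrays. A few list members are not reported here.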

Additional observations from a re-analysis of the deposited data

Results flagged for a closer look

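Called in opposite directions against control by the siRNAs, with a difference that limma also called, were 6 genes named by rule. At the printed probes ZFX (-1.70), SREK1 (-1.34) and USO1 (-1.15) were above control with siRNA 1 and below it with siRNA 3. MDFIC (1.54), PDHX (1.46) and SGO2 (1.22) were below control with siRNA 1 and above it with siRNA 3. Opposite directions do not hold at a brighter probe of USO1 and of SREK1, called above control with both siRNAs. The differences of these brighter probes, -0.05 and 0.19, were not called. The other probes of ZFX and SGO2 were called with the same sign, at -1.27 and 0.94.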

How the results depend on the processing

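The count of called probes depended on the processing more than any other value. Against 2617 calls (1208 higher, 1409 lower), it was 67 (27 and 40) with median centring, 673 (323 and 350) with the authors' calibrated ratios, 403 (166 and 237) without a dye term, 4995 (2233 and 2762) without background correction and 4439 (2054 and 2385) with low-quality spots left out. The share of higher calls moved from 46.2% to 40.3% with median centring. With a dye term for each siRNA, with the Cy5 arrays alone, and in either channel alone limma called 0 (0 and 0), with 5538, 5278, 2464 and 931 probes at an unadjusted p under 0.05. Without 1 array the count was 310 to 774 (121 to 308 higher, 189 to 466 lower). The remaining settings lay within 1.5 times. The cause was not tested.

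The TRMT12 difference of 0.16 was -0.0905 with scaling between arrays, 0.30 on the dye-exchanged arrays alone, a value with no test, and 0.07 to 0.23 without 1 array. It was called in none of the tested settings. NEMF turned to -0.0398 in the knockdown channel. Of 118 called gene results, 0 kept their call in every setting, since 3 settings called nothing, and 1 of the 118, NEMF, reversed. BAD and ATP5MC1, called list members outside the 118, also had the opposite sign in the knockdown channel (0.11 and -0.84). Of 64 uncalled ones, 21 changed sign in at least 1 setting. No paired analysis was possible because replicate numbers were given in accession order. Dim probes limit the low genes.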
